A study of Saccharomyces cerevisiae with 4 samples.

Results

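The genes described here are 42 ribosome biogenesis genes of *Saccharomyces cerevisiae*, chosen by systematic name among the 6212 rows of the deposited table. They encode nucleolar processing factors, DEAD-box RNA helicases, late and export factors and subunits of RNA polymerase I. All 42 were found in the table, 38 had at least 1 value and 37 had a value on all 4 arrays, against 5628 and 4255 of the 6212 rows. The values are log2 ratios from 4 dual-colour arrays, each of which set a trk1 trk2 double mutant against the wild type, both of strain BY4741. TRK1 and TRK2 encode the high-affinity potassium uptake system of the plasma membrane, so the comparison asks which transcripts differ when that system is missing. Mutant and wild type were both in log phase at 28 °C, harvested at an A600 of 0.6. Their Translucent K-free medium (15 µM potassium of its own) had received 50 mM KCl. The labels do not say how the alleles were made or whether more than 1 mutant clone was used. BY4741 carries non-functional HIS3, LEU2, MET17 and URA3 genes, and both genotypes carry the same strain label. By the labels the work was done in 2 independent experiments, each hybridised in both dye orientations, and the labels do not say which arrays belong together. Here experiment 1 is the pair of arrays 1 and 2, and experiment 2 the pair of arrays 3 and 4. Mutant cDNA was labelled with Cy5 for arrays 1 and 4, and with Cy3 for the other pair.

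Ribosomes are assembled mainly in the nucleolus, where RNA polymerase I transcribes the precursor of the large rRNAs. Small nucleolar ribonucleoproteins (snoRNPs) modify this precursor, a large particle called the small subunit processome cleaves it toward the 40S subunit, and a further set of assembly factors and helicases builds the 60S subunit before export to the cytoplasm. In budding yeast the genes for these factors are known to rise and fall together with growth conditions, often in the opposite direction to the general stress genes that Msn2 and Msn4 control.

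The arrays gave 4690 to 5403 values each, with array medians between −0.10 and 0.01, and the number of arrays limits the precision. TRK1 read −6.13 on array 1 and −4.60 on array 4 and was empty on the other arrays, and TRK2 was listed on array 4 alone, at −4.23. Among the auxotrophic markers, HIS3 (YOR202W) was higher in the mutant on 4 of 4 arrays, at 0.97 to 1.31, and rose past the test described below (mean 1.13 ± 0.16, adjusted p = 0.0228 in limma). URA3 read −1.43 to 0.32 over the 4 arrays, and LEU2 and MET17 were empty. A difference between the genotypes beyond TRK1 and TRK2 was not tested. Arrays 1 and 2 correlated at 0.80 across genes with a length in RefSeq (Pearson, n = 4031 genes) and arrays 2 and 3 at 0.69. Arrays 3 and 4, taken as dye-swapped repeats of 1 experiment, correlated at 0.39, and array 4 correlated with arrays 1 and 2 at 0.30 and 0.27. Array 4 thus stood apart, and values without it are given for a number of the means and medians below. A lower ratio in RNA from whole cultures can come from fewer cells with the transcript or from less transcript per cell, and these cannot be told apart.

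In the mean of the 2 experiments, 1 of the 37 members fell and 0 rose. The one that fell was DBP2 (YNL112W). The test was limma on the experiment means with Benjamini-Hochberg adjustment over 4255 genes and a threshold of 0.05. Of all genes 3.36% passed it, 1.62% as higher and 1.74% as lower. At an unadjusted p under 0.05, 3 members passed, DBP2, UTP20 and SPB4, all lower, where 20.2% of all genes did. The median of the members' means was 0.018, against −0.040 over all genes, with 19 members above 0 and 18 below. A second count, without a test, took genes whose mean ratio differed at least 1.5-fold and whose 4 arrays shared 1 sign. It held 2 members, DBP2 and UTP20, both lower, where 6.67% of all genes were lower and 3.88% higher.

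A mean near 0 did not come from ratios near 0. On array 1, 34 of the 37 members were below 0, with a median of −0.36, and on array 2, 29 were below 0, with a median of −0.27. On array 3 the members divided almost evenly, 19 above and 18 below, with a median of 0.018. On array 4, 33 members were above 0 and the median was 0.64. The medians of all genes on the same arrays were −0.017, −0.093, −0.088 and 0.043. The members' median lay above 21.0% of all genes on array 1, 32.9% on array 2, 59.4% on array 3 and 87.8% on array 4. Without array 4 the median of the members' means was −0.14, and without array 3 it was 0.18.

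**Figure D1:**
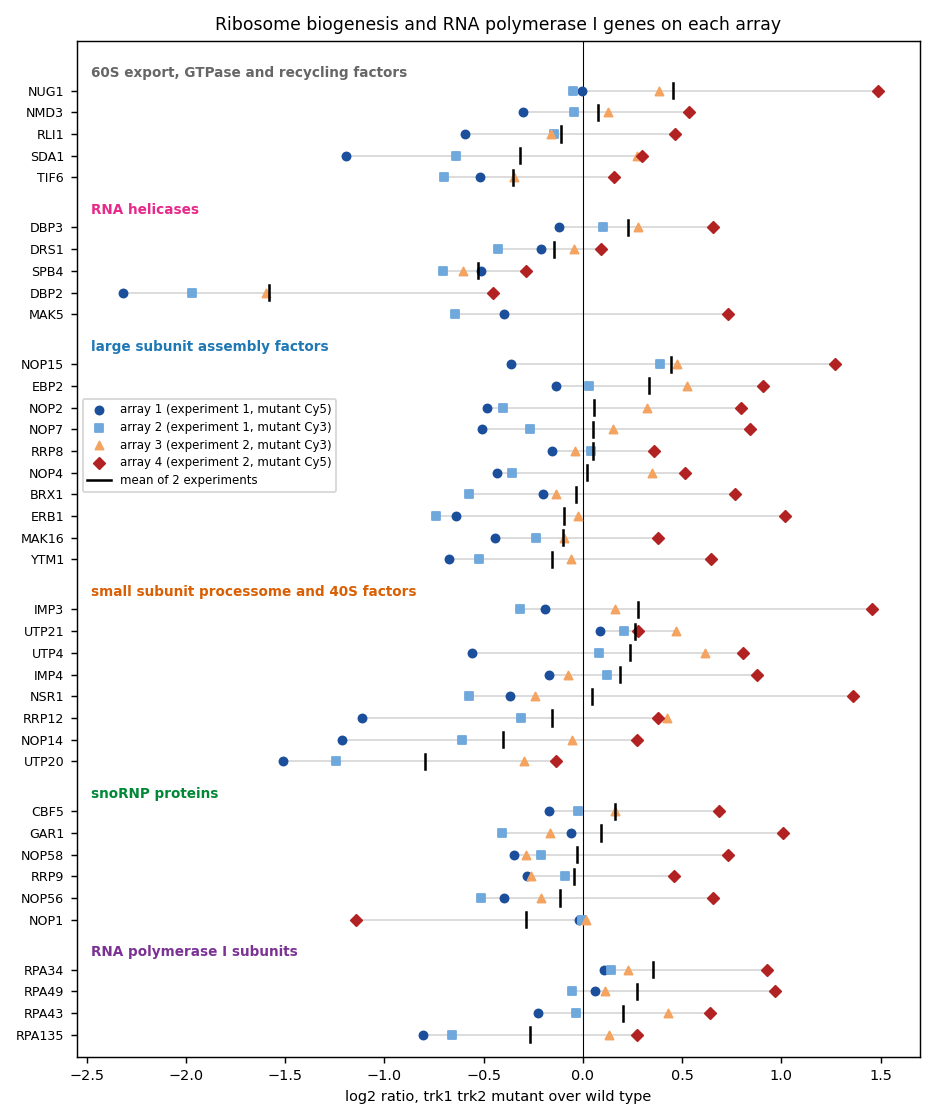
Log2 ratio of mutant over wild type (horizontal axis) of the 38 members with a value, grouped by role, with 1 symbol for each array and a black bar at the mean of the 2 experiments. Array 4 lies furthest right in most rows, DBP2 lies left of 0 on all 4 arrays, and NOP1 has its array 4 value at −1.14 and the other 3 close to 0.

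The difference between experiments ran one way in nearly every member. The mean of experiment 2 was above that of experiment 1 in 36 of 37 members (97.3%), where 51.9% of all genes had it so, and NOP1 was the exception. The median difference, experiment 2 minus experiment 1, was 0.68 in the members and 0.021 in all genes. Both arrays of experiment 2 lay above both arrays of experiment 1 in 29 members (78.4%), against 20.8% of all genes. The same sign on all 4 arrays was found in 5 members (13.5%), RPA34, UTP20, UTP21, DBP2 and SPB4, against 38.6% of all genes. Each experiment gives 1 independent value per gene, so the difference between experiments was described and not tested. It was not uniform within experiment 2 either. Array 4 exceeded array 3 by a median of 0.51 in the members and 0.16 in all genes, and it was the highest of the 4 arrays in 34 members (91.9%), against 41.1% of all genes. Array 2 exceeded array 1 by a median of 0.15 in the members, against −0.092 in all genes.

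**Figure D2:**
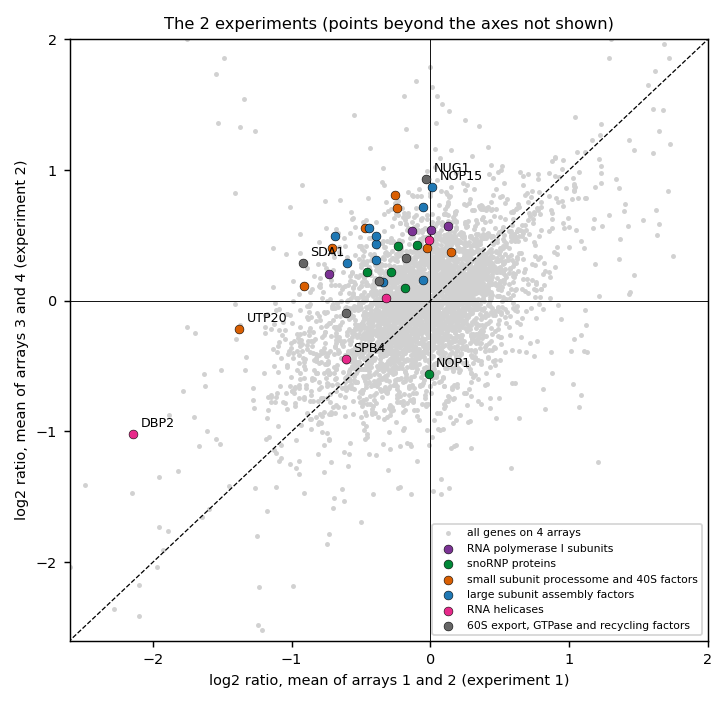
Mean log2 ratio of arrays 1 and 2 (horizontal axis) against that of arrays 3 and 4 (vertical axis), with members coloured by role, other genes in grey and the dashed line where both are equal. Of the 37 members 36 lie above the line, NOP1 below it, and DBP2 lies furthest toward the lower left.

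General stress genes read in the opposite direction on array 4. The 30 measured genes of a list of Msn2 and Msn4 targets had medians of 0.086, −0.063, −0.33 and −1.62 on arrays 1 to 4. In the mean of the experiments their median was −0.46, and 7 fell and 2 rose past the test, where 1.74% of all genes passed as lower and 1.62% as higher. Without array 4 the median was −0.17, and 7 were lower and 3 higher past the test, where 121 of 4255 genes were lower and 96 higher. In all 30 the value on array 4 was below that on array 3, and in 29 experiment 2 was below experiment 1. The part of this shift in the members' ratios was not tested.

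Of the RNA polymerase I subunits, 4 of 5 were measured on all 4 arrays and 0 passed the test in either direction, also at an unadjusted p under 0.05. RPA135 (YPR010C), the second largest subunit and part of the catalytic core, read −0.81, −0.66, 0.13 and 0.27 on arrays 1 to 4. Its mean was −0.27 ± 0.25 (limma's standard error, n = 2 experiments), the lowest of the class, and the experiments did not overlap. RPA34 (YJL148W) and RPA49 (YNL248C) form a heterodimer on the enzyme that helps initiation and elongation. RPA34 read 0.11, 0.14, 0.23 and 0.93, with a mean of 0.35 ± 0.19 (adjusted p = 0.343 in limma), the highest of the class, and 0.18 without array 4. RPA49 read 0.063, −0.053, 0.11 and 0.97, with a mean of 0.059 without array 4, so the heterodimer's genes were close to each other on every array and high on array 4 alone. RPA43 (YOR340C), which contacts the initiation factor Rrn3, had a mean of 0.20 ± 0.21. RPA190 (YOR341W), the largest subunit, was empty on all 4 arrays. The class median was −0.082 on array 1 and 0.78 on array 4. In the mean it was 0.24, but 0.10 without array 4 and −0.063 without experiment 2.

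The 6 snoRNP proteins were all measured, and 0 passed (limma; 0 also at an unadjusted p under 0.05). NOP1 (YDL014W), the fibrillarin methyltransferase of box C/D snoRNPs, read −0.019, −0.006, 0.018 and −1.14, and its mean of −0.29 ± 0.20 (adjusted p = 0.455 in limma) was the lowest of the class. Array 4 alone set that mean, and without it the value was 0.0028. NOP56 (YLR197W) and NOP58 (YOR310C), the paired scaffold proteins of the same particle, read 0.66 and 0.73 on array 4 and between −0.52 and −0.21 on arrays 1 to 3. The box C/D genes therefore parted on array 4, with NOP1 low and both scaffold genes high. RRP9 (YPR137W), which is specific to the U3 snoRNP, had a mean of −0.043 ± 0.17. In the H/ACA particles, the pseudouridine synthase CBF5 (YLR175W) had the highest mean of the class, 0.16 ± 0.19 (adjusted p = 0.668), from −0.17, −0.025, 0.16 and 0.69. Its partner GAR1 (YHR089C) read −0.062, −0.41, −0.17 and 1.01. Without array 4 their means were 0.032 and −0.20, and the class median was −0.21.

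Among the small subunit processome and 40S factors, 8 of 10 were measured and 0 passed over all genes, with UTP20 (YBL004W) at an unadjusted p of 0.0283. UTP20, a very large helical-repeat protein of the processome, read −1.51, −1.24, −0.30 and −0.14. All 4 values were negative, but those of experiment 1 lay far below those of experiment 2. Its mean was −0.80 ± 0.28, a 1.74-fold lower ratio (adjusted p = 0.185 in limma, n = 2 experiments), with a 95% confidence interval of −1.48 to −0.12. With the other dye-balanced pairing of the arrays its adjusted p was 0.0125 in limma, where 17.1% of all genes passed. That pairing averages 1 array of each experiment, so the difference between experiments largely drops out of its error. Over all alternatives the adjusted p of UTP20 ran from 0.0125 to 0.696. UTP21 (YLR409C), a WD-repeat protein of the processome, was above 0 on all 4 arrays, from 0.085 to 0.47, with a mean of 0.26 ± 0.17.

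IMP3 (YHR148W), which joins the U3 snoRNA to the pre-rRNA together with IMP4 (YNL075W) and Mpp10, had the highest mean of this class, 0.28 ± 0.27 (adjusted p = 0.589 in limma). It read −0.19, −0.32, 0.16 and 1.46, and IMP4 read −0.17, 0.12, −0.074 and 0.88. Without array 4 the mean of IMP3 was −0.045, and the class median was −0.096. NOP14 (YDL148C) read −1.22 and RRP12 (YPL012W), a factor in 40S export, −1.12 on array 1, and both stood near or above 0 in experiment 2, at −0.055 and 0.27 for NOP14 and 0.43 and 0.38 for RRP12. NSR1 (YGR159C), the yeast relative of nucleolin, read −0.37, −0.58, −0.24 and 1.36, the widest step between arrays 3 and 4 of any member, at 1.60. UTP4 (YDR324C), an early subunit of the processome, ran from −0.56 on array 1 to 0.81 on array 4. UTP10 (YJL109C) and RRP5 (YMR229C), large proteins of the early particle, were empty on all 4 arrays.

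The 10 large subunit assembly factors were measured on every array, and 0 passed (limma; 0 also at an unadjusted p under 0.05). Every member lay below 0 on array 1, at −0.68 to −0.14, and above 0 on array 4, at 0.36 to 1.27. NOP15 (YNL110C), an RNA-binding protein of early 60S particles, had the highest mean, 0.44 ± 0.24 (adjusted p = 0.346), from −0.36, 0.39, 0.47 and 1.27, and 0.24 without array 4. YTM1 (YOR272W) had the lowest, −0.15 ± 0.24 (adjusted p = 0.746), from −0.68, −0.52, −0.062 and 0.64. YTM1 forms a complex with NOP7 (YGR103W) and ERB1 (YMR049C) that is needed for 27S pre-rRNA processing. ERB1 read −0.64, −0.74, −0.025 and 1.02, and NOP7 −0.51, −0.27, 0.15 and 0.84. The genes of the complex were all highest on array 4, but so were 34 of all 37 members. From array 1 to the next, ERB1 went down while YTM1 and NOP7 went up. Of the other members of the class, EBP2 (YKL172W) had a mean of 0.33 ± 0.22. The RNA-binding protein NOP4 (YPL043W), the rRNA methyltransferases NOP2 (YNL061W) and RRP8 (YDR083W), and the assembly factors MAK16 (YAL025C) and BRX1 (YOL077C) had means between −0.098 and 0.058. RRP8 differed least between experiments within the class, by 0.21. Without array 4 the mean of EBP2 was 0.23 and the class median −0.089.

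DBP2 was the member that differed most. It encodes a DEAD-box helicase that acts in RNA quality control and rRNA processing, and its transcript carries an unusually long intron. It read −2.32, −1.97, −1.59 and −0.45 on arrays 1 to 4, so all values were negative and array 4 was the closest to 0. The ratio fell 3.0-fold in the mutant (log2 ratio −1.58 ± 0.28, 95% confidence interval −2.25 to −0.92, adjusted p = 0.0412 in limma, n = 2 experiments), and 23 of the 4255 genes had a lower mean. The call was lost without array 1, 2 or 3, where the ratios were −1.50, −1.67 and −1.30 (adjusted p = 0.0519, 0.0812 and 0.523), and held without array 4 (−1.87, adjusted p = 0.011). Without array 3 the smallest adjusted p of any gene was 0.193. It also ended at a ratio of −1.58 with a dye term (adjusted p = 0.0573) and with robust shrinkage (0.0506), and over all alternatives the adjusted p ran from 0.00682 to 0.598.

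The other helicases act mainly on the 60S precursor, and 0 of the 3 others on all 4 arrays passed in limma. SPB4 (YFL002C) read −0.51, −0.71, −0.60 and −0.29, the closest agreement between experiments of any member, with a mean of −0.53 ± 0.17 (unadjusted p = 0.0176, adjusted p = 0.149). Its adjusted p was 0.0457 with 4 separate arrays, 0.0396 with the experiment as a random block and 0.0315 with the other pairing, where 9.71%, 11.2% and 17.1% of all genes passed. The first of these fits treats dye-swapped repeats as replicates, and the block correlation of the second was −0.046, so it did in effect the same. DBP3 (YGL078C) had the highest mean of the helicases, 0.23 ± 0.19 (adjusted p = 0.529), with values from −0.12 on array 1 to 0.66 on array 4, and 0.14 without array 4. DRS1 (YLL008W) had a mean of −0.15 ± 0.18. MAK5 (YBR142W) had no value on array 3 and read −0.40, −0.65 and 0.73 on arrays 1, 2 and 4, and HAS1 (YMR290C) was empty on all 4.

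All 5 factors of 60S export, quality control and recycling were measured and 0 passed (limma; 0 also at an unadjusted p under 0.05). NUG1 (YER006W), a nuclear GTPase needed for 60S export, had the highest mean of all 37 members, 0.45 ± 0.25 (adjusted p = 0.367). It read −0.007, −0.051, 0.38 and 1.49, so its mean rested on experiment 2, and on array 4 above all. Without array 4 it was 0.18, and UTP21 at 0.31 was then the highest of the 37. TIF6 (YPR016C), which keeps 60S precursors from joining 40S subunits, had the lowest mean of the class, −0.35 ± 0.19 (adjusted p = 0.358), from −0.52, −0.70, −0.35 and 0.16, and −0.48 without array 4. SDA1 (YGR245C), a factor in 60S export, read −1.19, −0.64, 0.27 and 0.30, and its experiments differed by 1.20, the largest difference of any member. NMD3 (YHR170W), the export adaptor of the 60S subunit, and RLI1 (YDR091C), an ABC protein of ribosome recycling, had means of 0.078 ± 0.19 and −0.11 ± 0.19.

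The members shared a relation of ratio to gene length on some arrays. Gene lengths were taken from RefSeq, introns included. Across the 37 members the Spearman correlation of log2 ratio with gene length was −0.58 on array 1, −0.36 on array 2, 0.064 on array 3 and −0.47 on array 4. Across 4031 genes with a length it was −0.38, −0.17, 0.044 and −0.18. Genes on the same array share its labelling and normalization, so these values are descriptions. The 11 members of 2000 bp or more on all 4 arrays had medians of −0.81, −0.61, 0.13 and 0.28, and the 10 under 1000 bp −0.20, −0.13, −0.028 and 0.82. All genes of 2000 bp or more stood at −0.40, −0.29, −0.074 and −0.10. The most negative members in experiment 1 had long genes, with UTP20 at 7482 bp the longest of all members and DBP2 at 2643 bp. The length of DBP2 includes its long intron, so its mRNA is shorter, and it is counted among the 11 by the gene length. Among genes of 1000 to under 2000 bp, 16 members on all 4 arrays had a median of 0.67 on array 4 and −0.33 on array 1, against 0.043 and 0.059 over all genes of that length. Of the 4 members of 4000 bp or more, RPA190, UTP10 and RRP5 were empty on all arrays, where 15.3% of 196 such genes in the table were. The part of gene length in the ratios was not tested.

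**Figure D3:**
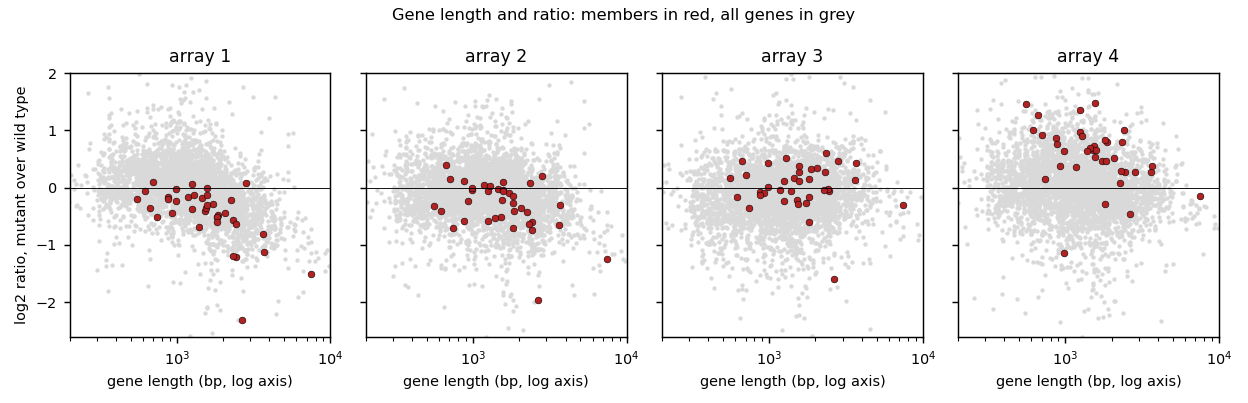
Log2 ratio of mutant over wild type (vertical axis) against gene length on a log axis (horizontal axis) on arrays 1 to 4, with the 37 members in red and other genes in grey. On array 1 the long members lie lowest, on array 3 the members show little relation to length, and on array 4 they lie mostly above 0.

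Other genes of the same pathway were described from lists that do not hold the members. Of 54 measured genes of small subunit biogenesis, 0 passed in limma, with 6 at an unadjusted p under 0.05, all higher, and the list median was 0.17. Of all genes 20.2% had such an unadjusted p, 312 of 4255 as higher and 549 as lower. SLX9 (YGR081C), an export factor of 40S precursors, had the highest mean, 0.81 ± 0.17 (adjusted p = 0.0622), from 0.57, 0.77, 0.67 and 1.24. It passed in 7 of the 16 alternatives, of which those that left out an experiment gave no p. Among them were centred arrays (adjusted p = 0.0407 in limma), where 205 of the 4255 genes passed, and the other pairing, which mixes the experiments, where 17.1% did. Most of the rest in effect treat dye-swapped repeats as replicates. DIP2 (YLR129W), a processome subunit, had the lowest, −0.37 ± 0.35, from −1.09 and −1.18 in experiment 1 to 0.18 and 0.62 in experiment 2. Of 55 genes of large subunit biogenesis, 0 passed, with 5 at an unadjusted p under 0.05, and the list median was 0.049. REH1 (YLR387C), a cytoplasmic 60S factor, read 0.83, 0.92, 0.83 and 0.43, with a mean of 0.75 ± 0.17 (adjusted p = 0.0719 in limma). It passed in 7 alternatives too, and most of these in effect treat dye-swapped repeats as replicates. RIX1 (YHR197W), a 60S assembly factor, had the lowest mean, −0.65 ± 0.25 (adjusted p = 0.212).

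On array 4 the medians of the small and large subunit lists were 0.79 and 0.56, and on array 1 they were −0.23 and −0.27, beside 0.64 and −0.36 for the members. The 12 other genes of the RNA polymerase I machinery stood closer to 0, at −0.003, −0.065, −0.10 and 0.19 on arrays 1 to 4, with RPA12 (YJR063W), a small subunit of the enzyme, highest at 0.40 ± 0.23 and RRN6 (YBL014C), a core factor subunit, lowest at −0.64 ± 0.27. The 8 subunits of RNA polymerase III had a median of 0.00080 in the mean, from RPC53 (YDL150W) at 0.40 to RPO31 (YOR116C) at −0.30. The 12 exosome and nuclease genes had a median of 0.084, from RRP40 (YOL142W) at 0.40 to DIS3 (YOL021C) at −0.28. The 118 ribosomal protein genes had a median of 0.027 in the mean and 0.021, −0.25, −0.24 and 0.56 on the arrays, from RPL33B (YOR234C) at 0.39 to RPL31B (YLR406C) at −0.79 (adjusted p = 0.0606). In these 4 lists 0 genes passed in limma. At an unadjusted p under 0.05 were 1 exosome gene and 1 ribosomal protein gene, against 20.2% of all genes. Without array 4 the medians of the small subunit, large subunit and ribosomal protein lists were 0.0029, −0.077 and −0.16. In that fit REH1 was higher past the test at 0.85 (adjusted p = 0.0431 in limma), and RIX1 and RPL31B were lower at −0.93 and −1.06 (adjusted p = 0.0484 and 0.0339). Of 4255 genes 217 passed there. Near-identical copies of ribosomal protein genes may share signal on the arrays, so their single values are uncertain.

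The regulators of ribosome synthesis read below 0 as a list on every array. Of 9 measured, 0 passed in limma and 5 had an unadjusted p under 0.05, all lower, and the same 5 were at least 1.5-fold lower with 1 sign on all 4 arrays. Of all genes 20.2% had such an unadjusted p in either direction and 6.67% were lower by that fold rule. The list median was −0.64 in the mean and −0.60, −0.43, −0.43 and −0.22 on arrays 1 to 4. RAP1 (YNL216W), which binds ribosomal protein promoters, had the lowest mean at −0.72 ± 0.20 (adjusted p = 0.113), and DOT6 (YER088C), a repressor of ribosome biogenesis genes, stood at −0.71 ± 0.17 (adjusted p = 0.0801). The kinases TOR2 (YKL203C), SCH9 (YHR205W) and TOR1 (YJR066W), which promote ribosome synthesis, stood at −0.71, −0.68 and −0.64, with adjusted p of 0.0946, 0.141 and 0.0976. DOT6 passed in 5 of the 16 alternatives, TOR2 in 4, RAP1 and TOR1 in 3 each and SCH9 in 2. All 5 passed with the other pairing and with the experiment as a random block, where 17.1% and 11.2% of all genes passed. Every pass of these 5 came from the other pairing or from fits that in effect treat dye-swapped repeats as replicates. The other pairing averages 1 array of each experiment, so the difference between experiments largely drops out of its error. These 5 genes are long, from 2013 to 7425 bp. DOT6, SCH9, TOR1 and TOR2, and FHL1 and SIT4 below, were named after their values were seen. The part of gene length in the ratios of the regulators was not tested. SFP1 (YLR403W), an activator of ribosome biogenesis genes with a length of 2052 bp, had a mean of 0.091 ± 0.16. FHL1 (YPR104C), at 2811 bp, had a mean of −0.073. SIT4 (YDL047W), at 936 bp, stood at 0.22. STB3 (YDR169C), a repressor that binds promoters of ribosome biogenesis genes, had a length of 1542 bp and the highest mean, 0.25 ± 0.17. TOD6 (YBL054W), the relative of DOT6, had no value on array 2 and read −0.47, −0.091 and 1.12 on arrays 1, 3 and 4.

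**Figure D4:**
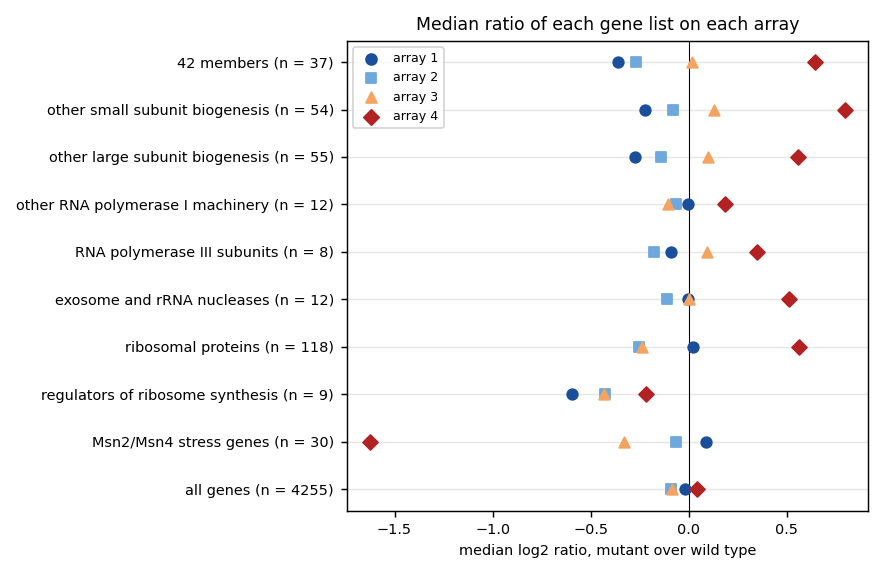
Median log2 ratio of mutant over wild type (horizontal axis) of each gene list on each of the 4 arrays, with the number of genes measured on all arrays. Medians of the 42 chosen genes and of the other subunit biogenesis lists lie lowest on array 1 and highest on array 4, whereas the stress list lies at −1.62 on array 4 and the regulators lie below 0 on every array.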

How the data were processed

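The table holds 1 log2 ratio per gene and array, deposited as the authors processed it. Per the labels, the authors set aside spots smaller than 120 µm across or dimmer than 100 units, which leaves cells without a value. How the ratios were normalized and centred, their log base and their direction were not given in the sources used here, and base 2 is an assumption. Dye-swapped columns correlate positively, so they run one way, and the negative TRK1 and TRK2 values put the mutant in the numerator. RNA (8 µg) was labelled from an oligo(dT) primer, per the labels. Rows were named through RefSeq R64 locus tags, 5644 exactly and 5662 ignoring case.

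Arrays 1 and 2, and 3 and 4, were paired because each pair shares its description wording and holds both dye orientations. Their means were tested against 0 with limma 3.58.1 in R 4.3.3 over 4255 genes on all 4 arrays. The procedure was also run on simulated data with independent errors for each gene. Those data lack the shifts shared by many genes on an array, so that run cannot speak to them. Nothing but the word independent says that experiments are separate cultures, so p-values may cover technical spread alone. The members and lists were chosen with earlier results of these data known. Named were members past the test, the highest and lowest of each role class and of each pathway list, and members with empty cells. Other members and further regulators were named after their values were seen. Promoter motifs were not searched.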

Additional observations from a re-analysis of the deposited data

Results flagged for a closer look

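In 4 of the 37 members (10.8%) 1 array lay far from the other 3 by Dixon's criterion, which chance meets in about 1 in 20 groups and which 6.77% of all genes met. The array was array 4 each time. NOP1 read −1.14 there, against −0.019 to 0.018 on the other arrays, and was the member that lay low. RPA49 read 0.97, RPA34 0.93 and NOP58 0.73 there, above the other 3 arrays. The median of the 6 snoRNP proteins, 0.67 on array 4 against −0.23 to −0.15 elsewhere, met the criterion too.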

How the results depend on the processing

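DBP2 was the only member called, so the count of called members changed wherever its call did. It was 3 with the other pairing of the arrays and 2 with 4 separate arrays or a random block. It was 0 with a dye term, at least 1 array of each experiment, robust shrinkage or no shrinkage, and ran from 0 to 1 when 1 array was left out. The corresponding counts over all genes, against 143, were 728, 413, 477, 245, 79, 133 and 3. On unaveraged arrays, asking for at least 2 values gave 309, and the count was 0 to 217 when 1 array was left out, lowest without array 3 and highest without array 4. Members at least 1.5-fold changed with 1 sign numbered 2 to 10 when an array or an experiment was left out. Fewer arrays make that rule easier to meet, and the same count over all genes was not made. The median of the helicases, −0.34, was −0.15 under both looser filters on empty cells, which add MAK5. With 1 experiment left out, the members' median was −0.32 or 0.38, and those of the classes changed sign except the helicases' (−0.46 and −0.21). They were −0.063 and 0.54 for RNA polymerase I, −0.21 and 0.22 for the snoRNP proteins, −0.36 and 0.40 for the small subunit, −0.39 and 0.46 for the large subunit, and −0.37 and 0.29 for 60S export. Of the 37 members, 8 kept their sign under every alternative and 34 under those that keep all 4 arrays. NOP58 turned to 0.022 with centred and 0.0051 with scaled arrays, RRP9 to 0.0084 and BRX1 to 0.015 with centred arrays.

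When an array or an experiment was left out, sign changes gave these ranges of the log2 ratio. RPA135 ran from −0.73 to 0.20, RPA43 from −0.13 to 0.53, NOP1 from −0.58 to 0.0028, NOP56 from −0.46 to 0.22, NOP58 from −0.28 to 0.22, RRP9 from −0.22 to 0.14, GAR1 from −0.24 to 0.42 and CBF5 from −0.098 to 0.42. UTP4 ran from −0.24 to 0.71, IMP3 from −0.25 to 0.81, IMP4 from −0.049 to 0.43, NOP14 from −0.91 to 0.11, NSR1 from −0.47 to 0.56 and RRP12 from −0.71 to 0.40. NOP2 ran from −0.44 to 0.56, NOP4 from −0.40 to 0.43, NOP7 from −0.39 to 0.50, ERB1 from −0.69 to 0.50, YTM1 from −0.60 to 0.29, MAK16 from −0.34 to 0.14, RRP8 from −0.056 to 0.16, BRX1 from −0.39 to 0.32 and EBP2 from −0.052 to 0.71. DBP3 ran from −0.0095 to 0.47, DRS1 from −0.32 to 0.023, NMD3 from −0.17 to 0.33, RLI1 from −0.37 to 0.15, NUG1 from −0.029 to 0.93 and SDA1 from −0.92 to 0.29. Of the other genes, DIP2 ran from −1.13 to 0.40, RPA12 from −0.0020 to 0.80, RPO31 from −0.72 to 0.12 and DIS3 from −0.57 to 0.020. Spot brightness was not used here, so its part could not be weighed, and the cause of these changes was not tested. The planned promoter motif comparison was not run. No separate paired analysis was made, because the ratio on each array already sets mutant against wild type.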
